A study of Homo sapiens with 7 samples.

Results

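Heart muscle makes most of its ATP by burning fatty acids, and 10 genes of that supply line were followed here through single cells of a stem cell differentiation. They were CKM and CKB, MB, FABP3 and CD36, CPT1A and CPT1B, ACADM and ACADVL, and PPARGC1A, chosen by name as genes of fatty acid use, creatine and myoglobin. All 10 of 10 were present in each of the 3 single-cell tables, among 21262 genes that those tables had in common. The cells were heart cells made from H1, a widely used line of human embryonic stem cells, and the series title places them in work on canonical Wnt signalling and atrioventricular canal muscle. The groups were day 15 with CHIR (as a rule this means CHIR99021, which inhibits GSK3 and so activates canonical Wnt signalling), day 15 with DMSO, the solvent control, and day 11, for which the labels give no treatment. The protocol text attached to the day 11 library speaks of cells at day 15, so its day rests on the title alone, and each value set between the days carries that doubt. Each group was 1 library, so no difference has a replicate check. How much CHIR was given, and when, is not in the labels, and all groups share the H1 origin.

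Fatty acids enter the muscle cell partly through the scavenger receptor CD36 and are carried through the cytosol by the heart form of the fatty acid binding protein, FABP3. CPT1A and CPT1B are the liver and muscle forms of carnitine palmitoyltransferase, which loads long chains onto carnitine for entry into the mitochondrion, and malonyl-CoA inhibits that step. ACADVL and ACADM then start the oxidation of very long and of medium chains, and PPARGC1A encodes PGC-1alpha, a coactivator of mitochondrial and fatty acid oxidation genes. Creatine kinase moves phosphate between ATP and creatine: CKM is its muscle form and CKB its brain form, which is also found in embryonic heart. MB, myoglobin, binds oxygen in striated muscle. The heart is known to shift towards fatty acids as it matures, while the young heart relies more on glucose and lactate.

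Cells were put into classes by the summed UMIs (unique molecular identifiers, which count captured transcripts) of fixed marker panels, given per 10000 UMIs of the cell. Muscle-gated cells carried at least 50 of the muscle panel (TNNT2, ACTN2, MYH6, TTN, TNNI1, MYL4, RYR2 and TNNI3), and mesenchymal-gated cells at least 10 of a collagen, LUM, DCN and POSTN panel. Cells past both thresholds were kept apart. The muscle class held 1340 of 5607 cells with CHIR (23.9%), 1883 of 4015 with DMSO (46.9%) and 3409 of 5683 at day 11 (60.0%), and the mesenchymal class held 3638, 1630 and 1286 cells. Muscle-gated cells carried all 8 panel genes in each library. The gate was set on these genes, and mesenchymal-gated cells carried all 8 as well, so this count does not identify the class. In the CHIR, DMSO and day 11 muscle classes, 4 skeletal muscle genes (MYOD1, MYOG, MYF5 and PAX7) summed to 1, 5 and 16 UMIs, with MYOD1 and MYF5 at 0 or not listed. The adipocyte markers (ADIPOQ, PLIN1, PLIN4 and LEP) summed to between 0.200 and 0.658 CPM (UMIs of a gene scaled to 1000000 UMIs of the class). Medians were 12687, 15250 and 12689 UMIs per cell in the CHIR, DMSO and day 11 libraries, and the ribosomal share of muscle-gated UMIs was 30.6%, 22.1% and 12.5%, in that order. A gene of 3 UMIs in the class corresponds to 0.150 CPM in CHIR muscle-gated cells, and every interval below is a 95% interval for counting error only.

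The promoters of CKM, CKB and FABP3 show how differently these genes begin, and are printed as the 250 bases before the annotated start, 5′ to 3′ on the strand of the gene, from RefSeq on GRCh38.p14. Capitals mark E-boxes (CANNTG, read the same on both strands) and, in CKB, a MEF2 motif with a TATAAA inside it. CKM is at chr19:45322876-45323125, CKB at chr14:103522831-103523080 and FABP3 at chr1:31373077-31373326, all on the minus strand.
CKM: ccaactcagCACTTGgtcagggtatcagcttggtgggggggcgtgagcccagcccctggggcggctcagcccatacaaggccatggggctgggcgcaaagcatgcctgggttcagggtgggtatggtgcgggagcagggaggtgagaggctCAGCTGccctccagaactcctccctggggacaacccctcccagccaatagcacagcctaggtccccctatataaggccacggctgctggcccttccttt
CKB: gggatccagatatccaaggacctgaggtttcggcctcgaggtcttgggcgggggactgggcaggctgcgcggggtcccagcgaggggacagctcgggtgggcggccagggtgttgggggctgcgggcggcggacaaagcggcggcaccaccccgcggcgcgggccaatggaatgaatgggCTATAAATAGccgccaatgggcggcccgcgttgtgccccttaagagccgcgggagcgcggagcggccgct
FABP3: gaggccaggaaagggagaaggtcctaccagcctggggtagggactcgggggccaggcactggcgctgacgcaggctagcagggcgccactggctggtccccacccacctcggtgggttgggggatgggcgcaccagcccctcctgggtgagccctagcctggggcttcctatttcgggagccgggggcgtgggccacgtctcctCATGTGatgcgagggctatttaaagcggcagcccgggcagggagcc

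The E-boxes of CKM begin 241 and 99 bases before the start and that of FABP3 46 bases before it, while the MEF2 motif of CKB begins 70 bases before its start. In windows of 250 bases before to 50 after the start, 68.7% of 35116 RefSeq promoters hold an E-box, 2.99% hold a MEF2 motif and 11.5% hold TATAAA on either strand. CpG dinucleotides numbered 5 in the CKM window, 36 in that of CKB and 17 in that of FABP3, and the ratio of observed to expected CpG was 0.161, 0.942 and 0.494, against a median of 0.579 over all windows. Of the 10 genes 9 had a window in the table. Among the others the ratio was 0.853 for ACADM, 0.706 for CPT1A and 1.10 at the upstream start of PPARGC1A, and at the upstream starts of MB, CD36 and ACADVL it was 0.198, 0.191 and 0.308. The other annotated start of PPARGC1A had 0.281 and that of ACADVL 0.811, so for both genes the starts lay on opposite sides of the median. All further starts of MB and CD36 lay below it. The motif matches describe letters only, and whether a factor binds there was not tested.

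**Figure D1:**
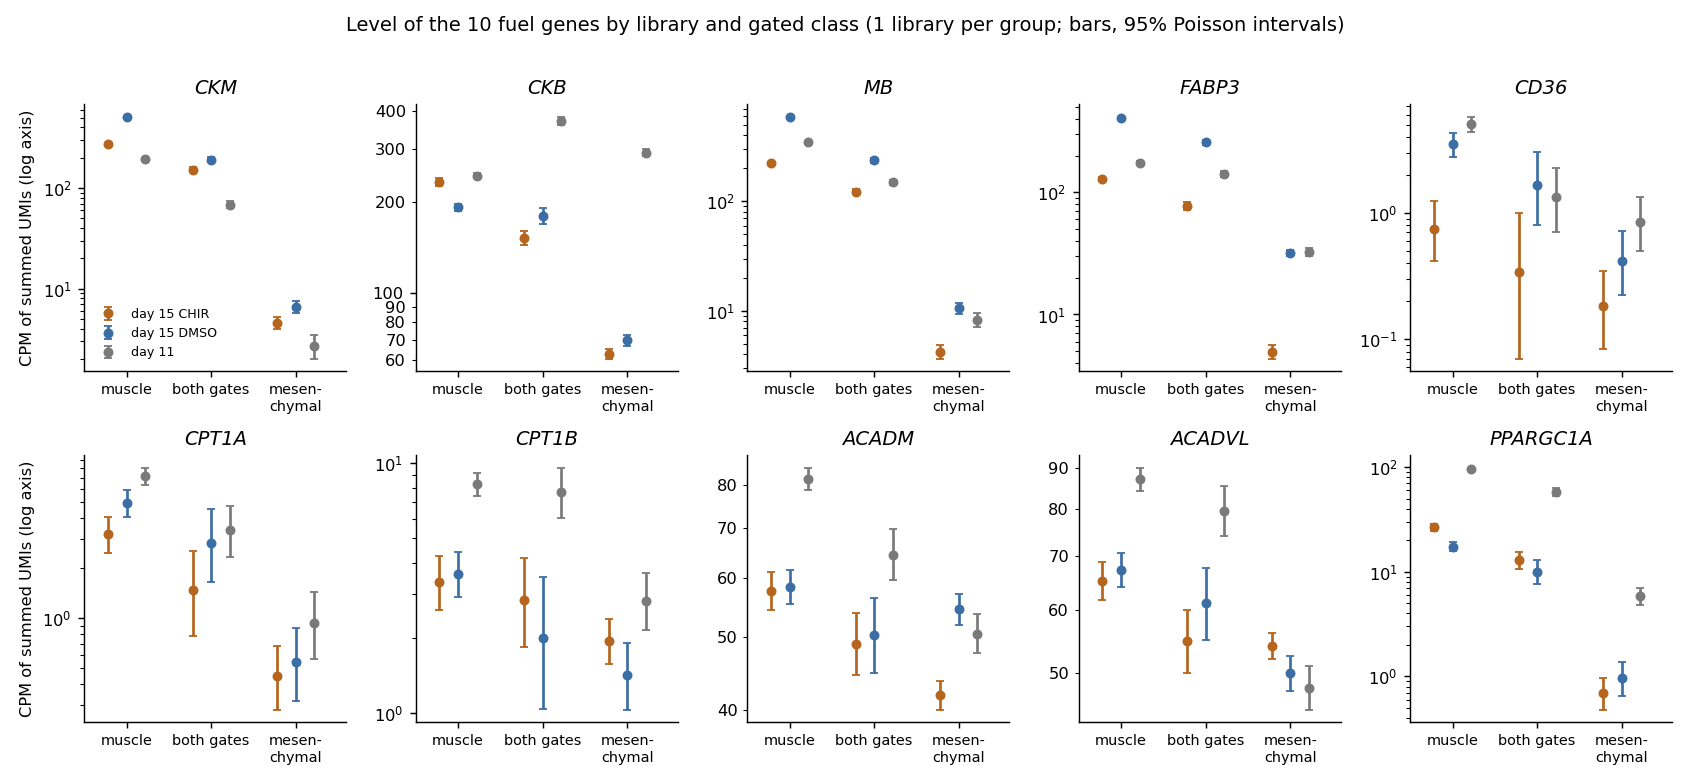
CPM of the 10 genes on a log axis in muscle-gated cells, cells past both gates and mesenchymal-gated cells, for day 15 CHIR, day 15 DMSO and day 11 (1 library each; bars are 95% Poisson intervals). CKM, MB, FABP3 and PPARGC1A sit far higher in muscle-gated than in mesenchymal-gated cells of each library, while the classes lie close together for ACADM and ACADVL, and CKB at day 11 is higher in mesenchymal-gated cells.

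Muscle-gated cells were first set against mesenchymal-gated cells of the same library, which share its preparation and depth. The transcripts of CKM, MB, FABP3 and PPARGC1A marked muscle, those of the acyl-CoA dehydrogenases ACADM and ACADVL were within 1.5-fold at day 15 and past it at day 11, and CKB was the gene whose order changed with the library. Counting a gene as higher or lower when the CPM ratio reached 1.5-fold, with at least 20 UMIs over both classes, 8 of 10 were higher in muscle with CHIR (25.1% of all 16537 genes), 8 with DMSO (34.9% of 16484) and 9 at day 11 (38.8% of 19142). None of the 10 was lower, against 24.6%, 21.0% and 19.8% of all genes in the same order.

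CKM (chromosome 19, 45306413 to 45322875, GRCh38.p14 as all positions here) stood at 275 CPM in muscle-gated and 4.56 CPM in mesenchymal-gated cells with CHIR, at 504 and 6.65 CPM with DMSO, and at 192 and 2.67 CPM at day 11. The ratios were 60.1-fold (52.6 to 69.1), 75.7-fold (66.0 to 87.2) and 72.0-fold (55.5 to 95.1). MB (chromosome 22, 35606764 to 35623354) was 52.9-fold (46.0 to 61.1), 55.5-fold (49.8 to 62.1) and 42.2-fold (36.3 to 49.2) higher in muscle. These ratios moved with the gates: with every threshold doubled the log2 ratio of CKM in the DMSO library was 4.52, and with every threshold halved 7.16, against 6.24 as gated.

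FABP3 (chromosome 1, 31359588 to 31373076) overlaps the protein-coding gene ZCCHC17. It reached 128 CPM in muscle-gated and 4.95 CPM in mesenchymal-gated cells with CHIR, 409 and 31.8 CPM with DMSO, and 175 and 32.6 CPM at day 11. Its muscle-to-mesenchymal ratio was thus 25.9-fold (22.7 to 29.7), 12.8-fold (12 to 13.7) and 5.36-fold (4.96 to 5.8), and the mesenchymal class held less of it with CHIR than in the other libraries. PPARGC1A (chromosome 4, 23792021 to 24472905) was at 26.5 and 0.696 CPM with CHIR, 17.3 and 0.964 CPM with DMSO, and 95.7 and 5.81 CPM at day 11, in muscle-gated and mesenchymal-gated cells. It was 38.1-fold (26.9 to 55.6), 18.0-fold (12.4 to 27) and 16.5-fold (13.8 to 19.9) higher in muscle.

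The fatty acid receptor and the carnitine enzymes had few UMIs but were also on the muscle side. CD36 (chromosome 7, 80602207 to 80679274) had 15 UMIs in muscle-gated and 9 in mesenchymal-gated cells with CHIR, 87 and 13 with DMSO, and 199 and 18 at day 11, for CPM ratios of 4.06-fold (1.67 to 10.5), 8.33-fold (4.63 to 16.3) and 5.97-fold (3.68 to 10.3). CPT1A (chromosome 11, 68754620 to 68844277) was 7.09-fold (4.31 to 12.1), 9.01-fold (5.40 to 16.0) and 7.67-fold (4.87 to 12.8) higher in muscle. CPT1B (chromosome 22, 50568861 to 50578612), the muscle form of the enzyme, was only 1.72-fold (1.24 to 2.37), 2.55-fold (1.76 to 3.74) and 2.94-fold (2.22 to 3.93) higher. CPT1B lies inside the annotated readthrough gene CHKB-CPT1B, and the sources used here do not say how reads of the pair were assigned.

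ACADM (chromosome 1, 75724709 to 75763679) differed between the classes by 1.38-fold (1.28 to 1.48), 1.07-fold (0.998 to 1.15) and 1.61-fold (1.5 to 1.73) with CHIR, with DMSO and at day 11. With TMM scaling, which sets the bulk of genes to no change, the small DMSO difference took the other sign (log2 of -0.06, against 0.10). ACADVL (chromosome 17, 7217125 to 7225266), which overlaps DLG4, was 1.20-fold (1.13 to 1.29), 1.34-fold (1.25 to 1.44) and 1.82-fold (1.69 to 1.95) higher in muscle. These enzymes serve mitochondria of many tissues, and both classes held them at levels between 41.8 and 87.1 CPM.

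CKB (chromosome 14, 103519667 to 103522830) was the exception among the 10. It was 3.71-fold (3.55 to 3.89) higher in muscle-gated cells with CHIR and 2.75-fold (2.62 to 2.90) higher with DMSO, but at day 11 its level was 244 CPM in muscle-gated and 291 CPM in mesenchymal-gated cells, a ratio of 0.838 (0.811 to 0.865). Endoderm-gated cells, which carry APOA2, TTR and AFP, held 480 CPM with CHIR (7 cells), 3123 CPM with DMSO (18 cells) and 2730 CPM at day 11 (126 cells). Muscle-gated cells thus had less CKB than the endoderm class with DMSO and at day 11. The 7 endoderm-gated cells with CHIR are too few to use, and the muscle panel summed to 3229 CPM in them.

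The share of muscle transcript found in mesenchymal-gated cells was compared with 8 further muscle genes kept out of the gate (MYH7, TNNC1, MYBPC3, CSRP3, MYOZ2, SMPX, TCAP and NPPA), a list chosen after their values were seen. The mesenchymal-gated level of those genes was a median 1.89% of the muscle-gated level with CHIR (range 1.03% to 3.82%), 2.37% with DMSO (0.793% to 4.49%) and 3.12% at day 11 (1.33% to 39.2%, with MYOZ2 highest). CKM stood at 1.66%, 1.32% and 1.39% and MB at 1.89%, 1.80% and 2.37%, which lie within those ranges. FABP3 stood at 3.86% (3.37 to 4.4), 7.78% (7.28 to 8.31) and 18.7% (17.2 to 20.2). It was therefore above the range with DMSO, at its upper edge with CHIR, and at day 11 below only 1 of the 8 genes, MYOZ2. Among the gate genes, TNNI1 stood at 8.69%, 16.9% and 19.9% and TNNI3 at 29.6%, 47.7% and 31.6%, in the same order of libraries. Both were above FABP3 in each library, and the other gate genes were below it. A high share was thus not particular to FABP3. Free RNA and cells caught as pairs reach all classes of a library, and their part in these low levels was not tested.

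**Figure D2:**
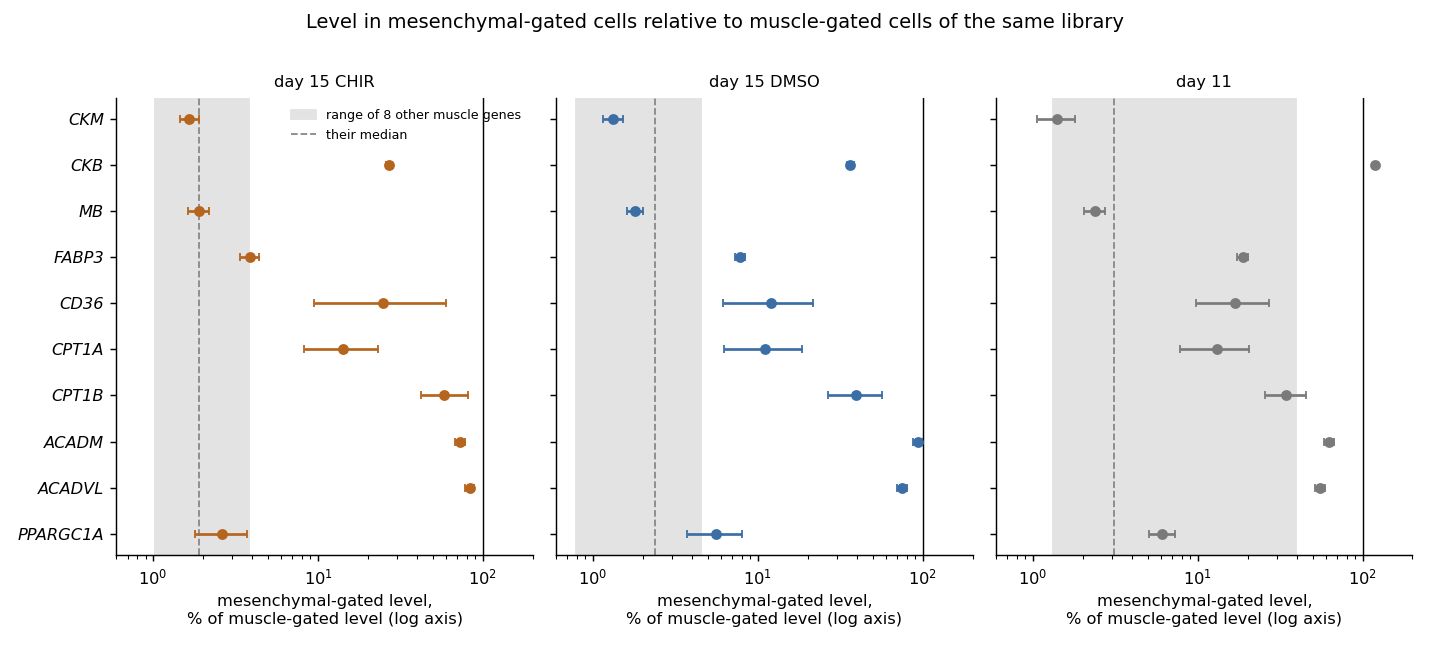
Level in mesenchymal-gated cells as a percentage of the level in muscle-gated cells of the same library, on a log axis, with 95% counting intervals; the grey band is the range of 8 other muscle genes and the dashed line their median. CKM and MB lie inside the band in each library, FABP3 shifts right of it with DMSO, and ACADM and ACADVL lie right of the band in each library, closer to the line at 100% at day 15 than at day 11.

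Between the day 15 libraries, muscle-gated cells of the CHIR library had less CKM, MB and FABP3, which were 1.83-fold to 3.18-fold lower than with DMSO. The dehydrogenases ACADM and ACADVL stood at nearly the same level, with log2 ratios of -0.02 and -0.05 that TMM scaling turned to 0.04 and 0.01, and PPARGC1A was 1.53-fold higher. At 1.5-fold, 5 of 10 genes were lower with CHIR (26.1% of 15820 genes were) and 1 was higher (20.6% were). The median log2 ratio of the 10 was -0.36, against -0.02 over all genes.

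The M form of creatine kinase was at 275 CPM in CHIR muscle-gated cells, against 504 CPM in DMSO muscle-gated cells, 1.83-fold lower (1.78 to 1.89). CKB was at 233 CPM with CHIR and 192 CPM with DMSO, a ratio of 1.21 (1.17 to 1.26). The isoforms thus lay on opposite sides, although the difference in CKB did not reach 1.5-fold. MB stood at 223 CPM with CHIR and 586 CPM with DMSO, 2.62-fold lower (2.54 to 2.71). FABP3 stood at 128 CPM with CHIR and 409 CPM with DMSO, 3.18-fold lower (3.05 to 3.32), with 6.38% of all genes at or below its ratio.

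CD36, the receptor, was lower too, but on few counts: 15 UMIs with CHIR and 87 with DMSO, 4.65-fold lower (2.67 to 8.67). CPT1A was at 3.19 CPM with CHIR and 4.92 CPM with DMSO, 1.54-fold lower (1.13 to 2.12). It fell short of 1.5-fold with TMM scaling and with mitochondrial and ribosomal genes left out of the totals, which made 4 of 10 genes lower. CPT1B was at 3.34 and 3.60 CPM with CHIR and DMSO, with an interval of the ratio from 0.666 to 1.29.

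ACADM stood at 57.7 CPM with CHIR and 58.4 CPM with DMSO (ratio 0.988, 0.914 to 1.07) and ACADVL at 65.1 and 67.3 CPM (0.967, 0.899 to 1.04). A difference of 1.5-fold in either gene is outside these counting intervals, which do not cover the spread between cultures. PPARGC1A stood at 26.5 CPM with CHIR and 17.3 CPM with DMSO, 1.53-fold higher (1.34 to 1.74). That call was at the threshold: as a mean of per-cell CPM, with the gates doubled, or with cells of both gates counted as muscle, 0 of 10 genes were 1.5-fold higher, and the log2 ratio of PPARGC1A ranged from 0.49 to 0.80 over the alternatives.

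**Figure D3:**
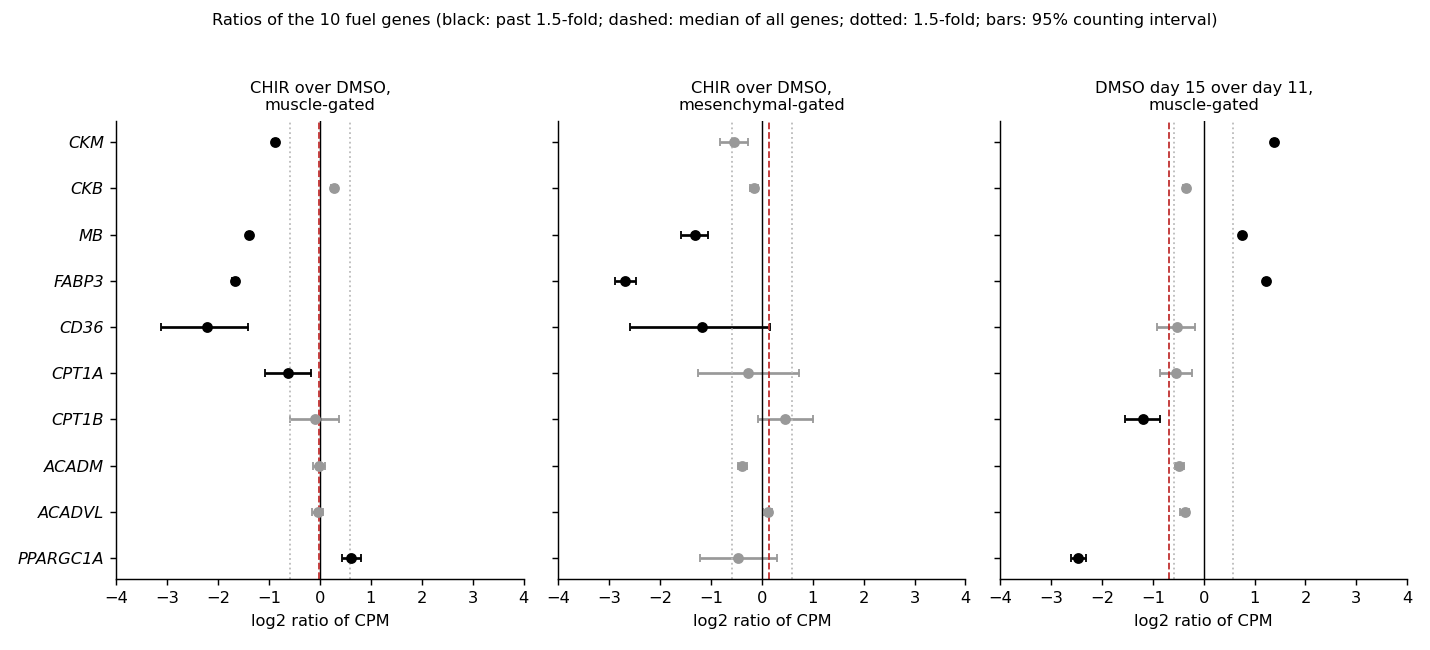
Log2 ratios of the 10 genes with 95% counting intervals for CHIR over DMSO in muscle-gated and in mesenchymal-gated cells and for DMSO day 15 over day 11 in muscle-gated cells. CKM, MB and FABP3 lie left of zero with CHIR and right of zero at day 15 against day 11, while PPARGC1A lies on the opposite side of zero in both muscle-gated panels; the dashed median of all genes is near zero with CHIR and at -0.67 for the days.

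Other muscle genes also differed. The 8 genes of the gate summed to 19254 CPM in CHIR and 18150 CPM in DMSO muscle-gated cells, a ratio of 1.06. Within that sum TTN (titin) was 2.07-fold higher with CHIR, ACTN2 was 2.44-fold lower and TNNI3 2.28-fold lower. The 8 muscle genes outside the gate summed to 2049 and 4616 CPM, 2.25-fold lower. TNNC1 (cardiac troponin C) was 2.66-fold lower, TCAP (a Z-disc cap protein) 2.40-fold lower and MYH7 (the slow, ventricular myosin) 20.3-fold lower, while MYBPC3 was at 176 CPM with CHIR and 163 CPM with DMSO. In the same CHIR and DMSO cells endoderm markers summed to 20.8 and 98.2 CPM, with 4 and 6 of 6 genes present, and epicardial markers to 7.48 and 25.9 CPM, with 6 of 6 present in both. Their part in the differences was not tested.

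A lower sum can come from fewer cells with a transcript or from fewer transcripts per cell. Cells were also counted, but these counts cannot tell the 2 apart. At means as low as 0.645 FABP3 UMIs per 5000 UMIs with CHIR and 1.93 with DMSO, the share of cells with a UMI largely follows the mean. After thinning every cell to 5000 UMIs, so that depth was equal, CKM was detected in 58.9% of CHIR muscle-gated cells (56.2 to 61.6) and 74.6% of DMSO muscle-gated cells (72.5 to 76.6). MB was detected in 59.9% with CHIR and 81.9% with DMSO, and FABP3 in 44.3% and 81.1%. Without thinning the shares were 80.4% and 85.3% for CKM, 86.1% and 91.8% for MB and 75.1% and 92.0% for FABP3. The thinning left out 18 shallower cells with CHIR and 65 with DMSO.

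The upper end moved as well: cells with at least 5 CKM UMIs were 5.30% with CHIR and 19.3% with DMSO, those with at least 5 MB UMIs 2.5% and 24.5%, and those with at least 5 FABP3 UMIs 0.151% and 7.37%. PPARGC1A was found in 12.2% of thinned CHIR cells and 8.86% of thinned DMSO cells, and CKB in 63.8% and 51.3%. In endoderm-gated cells of day 11, the largest class that should lack these muscle genes, thinned shares were 5.56% for CKM, 7.14% for MB, 4.76% for FABP3 and 2.38% for PPARGC1A, at a median of 16607 UMIs per cell. In the 18 endoderm-gated cells of the DMSO library they were 5.56% for CKM, 16.7% for MB and 5.56% for FABP3, with PPARGC1A in 0 of 18 cells, which allows up to 18.5%, at a median of 20591 UMIs; the 7 such cells with CHIR are too few to use. The muscle-gated shares of CKM, MB and FABP3 lie above both values, and those of PPARGC1A above the day 11 value. CKB has no such background, since the endoderm class itself holds it.

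**Figure D4:**
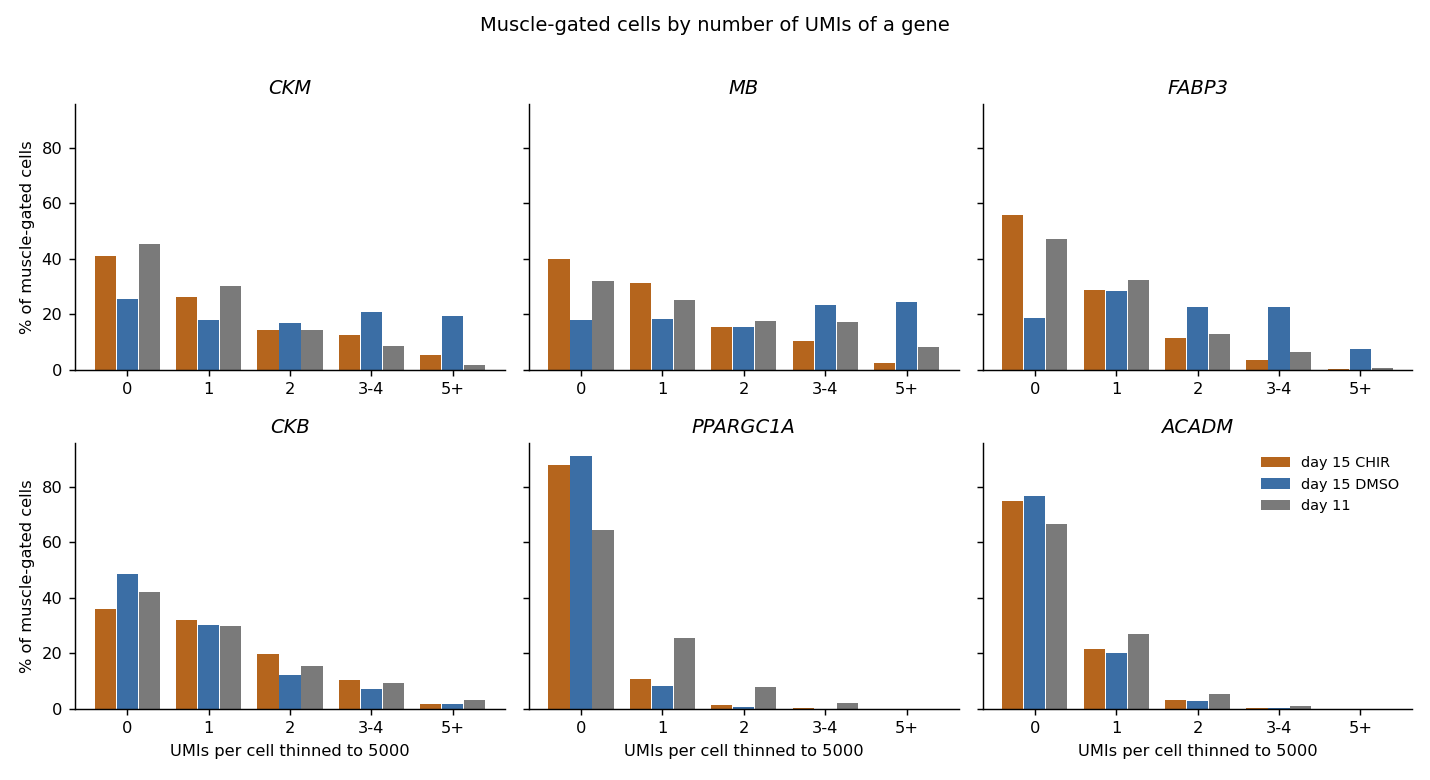
Percentage of muscle-gated cells with 0, 1, 2, 3 to 4, and 5 or more UMIs of a gene after each cell was thinned to 5000 UMIs, for day 15 CHIR (1322 cells), day 15 DMSO (1818 cells) and day 11 (3276 cells). For CKM, MB and FABP3 the DMSO bars are the tallest at 3 to 4 and at 5 or more UMIs, and PPARGC1A is found in the most cells at day 11.

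Within muscle-gated cells, cells were sorted further by single genes, to see whether the difference sat in a subset. TBX2 and TBX3 are repressors that mark the atrioventricular canal, and cells with at least 2 UMIs of them were 682 with CHIR and 405 with DMSO. In those cells CKM was at 268 CPM with CHIR and 518 CPM with DMSO, 1.93-fold lower (1.83 to 2.03), MB was 2.56-fold lower (2.43 to 2.70) and FABP3 3.11-fold lower (2.91 to 3.33). Inside each day 15 library the cells in and out of this gate were close: 268 and 282 CPM of CKM with CHIR, 518 and 499 CPM with DMSO, with intervals of the in-to-out ratio of 0.900 to 1.00 and 0.994 to 1.08.

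NPPA encodes atrial natriuretic peptide, which chamber muscle secretes. Cells with at least 5 NPPA UMIs were 42 with CHIR, 326 with DMSO and 184 at day 11. FABP3 was higher in these cells than in the rest of the muscle class in each library, 1.29-fold (1.06 to 1.55), 1.30-fold (1.24 to 1.36) and 1.28-fold (1.17 to 1.40). CKM was 1.42-fold (1.25 to 1.60), 1.10-fold (1.05 to 1.14) and 1.49-fold (1.38 to 1.62) higher. A cell with more UMIs passes any of these count gates more easily, and the part of depth in the ratios was not tested. PPARGC1A showed no such order, with intervals that include 1 in each library.

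Cycling-gated cells, with at least 5 UMIs of MKI67, TOP2A, CENPF and UBE2C together, were 171 with CHIR, 230 with DMSO and 196 at day 11. CKM was at 205 CPM in cycling-gated and 286 CPM in other cells with CHIR, 310 and 536 CPM with DMSO, and 131 and 197 CPM at day 11. FABP3 was lower in cycling-gated cells as well, 1.55-fold (1.36 to 1.77), 1.37-fold (1.29 to 1.46) and 1.46-fold (1.31 to 1.64) in the same order of libraries. Both genes were thus lower in the cycling-gated cells of all 3 libraries. Among those cells alone CHIR remained below DMSO, 1.52-fold for CKM (1.37 to 1.68) and 3.55-fold for FABP3 (3.09 to 4.08).

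SHOX2, a transcription factor of the sinus node, picked out 67 muscle-gated cells of the DMSO library with at least 2 UMIs. CKM was at 136 CPM in these cells and 519 CPM in the others, 3.83-fold lower (3.24 to 4.56), and MB was at 230 and 601 CPM, 2.62-fold lower (2.30 to 2.99). FABP3 was at 365 and 411 CPM, which is 1.12-fold lower (1.01 to 1.25). In this small group, then, myoglobin and creatine kinase M were low while FABP3 was close to the rest. The muscle panel summed to 14605 CPM in it and 18300 CPM in the others, and the 8 muscle genes outside the gate to 2230 and 4717 CPM. Epicardial markers (WT1, UPK3B, TBX18, TCF21, ALDH1A2 and MSLN) summed to 149 CPM in it, with 5 of 6 genes present, and to 20.7 CPM in the other cells, with 6 of 6 present. Their part in the result was not tested. Leaving out every muscle-gated cell with a SHOX2 UMI gave log2 ratios of CHIR over DMSO of -0.94 for CKM and -1.44 for MB, against -0.88 and -1.39 with those cells.

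Cell by cell, the genes were only loosely tied. In thinned muscle-gated cells the Spearman correlation of CKM with MB was 0.11 with CHIR, 0.34 with DMSO and 0.18 at day 11, and that of MB with FABP3 was 0.09, 0.17 and 0.08. These counts are sparse, and the values are a description over 1322, 1818 and 3276 cells. Across the 14 sums of a library and class with at least 50 cells, which share libraries, the log2 levels of CKM and MB had a Pearson correlation of 0.95, and those of CKM and FABP3 of 0.86. Over the same sums CKB had -0.08 with CKM. Among 5568 other genes outside the gate, those most like CKM were MYL3 (0.99), a ventricular myosin light chain, CSRP3 (0.98), a Z-disc protein, and HSPB7 (0.97), a small heat shock protein of muscle. Those most like MB were TNNC1 (0.99), TCAP (0.99) and ADPRHL1 (0.98), and those most like FABP3 were FXYD1 (0.99), a regulator of the sodium pump, CRIP1 (0.97) and PNKD (0.97).

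Around the 10 genes, 60 genes of the same pathways were followed as 7 lists. Genes were named mostly by their CPM, but not every gene of high CPM is named, and some were chosen after their values were seen. Of 14 genes of beta oxidation, 7 were at least 1.5-fold lower with CHIR and 0 were higher, with a median log2 ratio of -0.47 against -0.02 for all genes, of which 26.1% were lower and 20.6% higher. ETFB, which takes electrons from the dehydrogenases, was at 281 CPM with CHIR and 431 CPM with DMSO, 1.54-fold lower (1.49 to 1.59). The ETFB call was lost with TMM scaling and without mitochondrial and ribosomal genes in the totals. ECI1 was 0.827-fold the DMSO level (0.798 to 0.856), while ECHS1 was 1.45-fold (1.39 to 1.51) and HADHA 1.40-fold (1.34 to 1.47) higher, both short of 1.5-fold. Genes of the list thus lay on both sides, with TMM scaling 6 were lower, and without mitochondrial and ribosomal genes in the totals 5 were lower and 2 higher. Chosen after their values were seen, DECR1, ETFA and ACADS were 1.86-fold, 1.90-fold and 1.98-fold lower. ACADL, the long-chain dehydrogenase, had 2 UMIs with CHIR and 25 with DMSO, for a ratio of 0.0997 (0.0114 to 0.400).

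The lists around creatine and fatty acid entry were mixed. Beside their counts, 26.1% of all genes were at least 1.5-fold lower with CHIR and 20.6% were higher. Of 7 creatine and phosphoryl transfer genes, 3 were lower and 1 higher with CHIR: GAMT and GATM, the enzymes of creatine synthesis, were 1.78-fold (1.71 to 1.85) and 5.47-fold (4.55 to 6.63) lower, AK1, adenylate kinase, was 2.87-fold (2.71 to 3.05) lower, and SLC6A8, the creatine transporter, was 2.15-fold (1.90 to 2.44) higher. CKMT1A and CKMT1B are near-identical copies, and their counts are uncertain. Of 7 uptake and activation genes with enough UMIs, 2 were higher and 2 lower. ACSL1, which activates long chains, was at 38.5 CPM with CHIR and 14.3 CPM with DMSO, 2.69-fold higher (2.37 to 3.06). FABP5, the epidermal form of the binding protein, was 1.83-fold lower (1.73 to 1.94) and the transporter SLC27A6 1.90-fold lower (1.62 to 2.24).

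The same shares of all genes, 20.6% higher and 26.1% lower with CHIR, stand beside each count that follows. In the carnitine shuttle 0 of 5 genes passed 1.5-fold in either direction, with CPT2 at 14.0 and 15.3 CPM in CHIR and DMSO muscle-gated cells. The acetyl-CoA carboxylases ACACA and ACACB, which make malonyl-CoA, were 1.79-fold (1.55 to 2.07) and 1.5-fold (1.33 to 1.7) higher, and MLYCD, which removes it, was 1.30-fold (1.12 to 1.51) higher, so 2 of 3 genes passed, and 1 of 3 as a mean of per-cell CPM or without SHOX2 cells. Among 16 regulators with enough UMIs 3 were higher and 3 lower. ESRRA, a nuclear receptor partnered by PGC-1alpha, was 2.31-fold higher (2.09 to 2.55) and MEF2A 1.58-fold lower (1.48 to 1.68), while MEF2C and TFAM had ratios of 0.836 and 1.12. Without mitochondrial and ribosomal genes in the totals, MEF2A fell short of 1.5-fold. Of 3 genes of the oxygen list, EPAS1 was past 1.5-fold higher on 31 and 25 UMIs and CYGB, cytoglobin, 1.51-fold lower (1.21 to 1.88). The CYGB call was lost with TMM scaling and without mitochondrial and ribosomal genes, and as a mean of per-cell CPM 0 of the 3 passed in either direction.

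CHIR and DMSO were also compared in mesenchymal-gated cells. There 3 of 10 genes were at least 1.5-fold lower with CHIR (24.3% of 16784 genes) and 0 were higher (32.5%). FABP3 was at 4.95 CPM with CHIR and 31.8 CPM with DMSO, 6.42-fold lower (5.58 to 7.42), and MB at 4.22 and 10.5 CPM, 2.5-fold lower (2.09 to 2.99). CD36 had 9 and 13 UMIs, with an interval of the ratio of 0.166 to 1.11. CKM was 1.46-fold lower (1.20 to 1.77), and with the gates halved its log2 ratio took the other sign, at 0.08 against -0.54. CKB was at 62.7 CPM with CHIR and 69.6 CPM with DMSO, a ratio of 0.901 (0.853 to 0.953), and ACADM was 1.30-fold lower (1.22 to 1.39). The muscle panel itself summed to 716 CPM in the mesenchymal class with CHIR and 1448 CPM with DMSO, with 8 of 8 genes present in both, and its part in these ratios was not tested. Smooth muscle markers summed to 520 CPM with CHIR and 2517 CPM with DMSO in this class, with 4 of 4 genes present in both, and epicardial markers to 78.9 and 296 CPM, with 6 of 6 present in both; their part was not tested either. PPARGC1A had 34 and 30 UMIs, a ratio of 0.722 (0.429 to 1.22). Of 14 beta oxidation genes 7 were lower and 1 was higher with CHIR in this class, and of 5 creatine genes with enough UMIs 4 were lower and 1 was higher, with medians of -0.64 and -0.76 against 0.14 for all genes. Without mitochondrial and ribosomal genes in the totals, 5 beta oxidation genes were lower and 2 higher, and 2 creatine genes were lower and 1 higher.

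Between the days, muscle-gated cells at day 15 with DMSO had more CKM, FABP3 and MB than muscle-gated cells at day 11, and less PPARGC1A. CKM was at 504 CPM at day 15 and 192 CPM at day 11, 2.62-fold higher (2.55 to 2.70), FABP3 at 409 and 175 CPM, 2.34-fold higher (2.27 to 2.41), and MB at 586 and 347 CPM, 1.69-fold higher (1.65 to 1.73). These 3 of 10 passed 1.5-fold upwards, as did 8.46% of 18060 genes. Downwards 2 of 10 passed, as did 53.1% of all genes, and the median gene stood at -0.67 on the log2 scale, so the libraries differ broadly and values are also given relative to that median. In the same day 15 and day 11 cells the 8 muscle genes outside the gate summed to 4616 and 2738 CPM (1.69-fold higher), smooth muscle markers to 966 and 502 CPM (1.93-fold higher) and epicardial markers to 25.9 and 12.6 CPM (2.06-fold higher), with every gene of the 3 lists present. Their part in these ratios was not tested.

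Relative to the median gene, CKM was 4.18-fold, FABP3 3.73-fold and MB 2.69-fold higher at day 15. Of all genes, 98.3%, 97.7% and 94% had ratios at or below those of CKM, FABP3 and MB. TMM scaling gave log2 ratios of 1.98, 1.82 and 1.35 for the same genes. In thinned cells CKM was detected in 74.6% at day 15 and 54.5% at day 11, FABP3 in 81.1% and 52.7%, and MB in 81.9% and 68.0%. All 3 measures place the trio higher at day 15.

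CKB, CD36, CPT1A, ACADM and ACADVL had log2 ratios between -0.54 and -0.35 at day 15 against day 11, above the median gene, and with TMM scaling all 5 turned to the other sign, between 0.05 and 0.25. No direction is given for them. CPT1B was at 3.60 CPM at day 15 and 8.25 CPM at day 11, 2.29-fold lower (1.81 to 2.93), and 1.43-fold lower relative to the median gene. PPARGC1A was at 17.3 CPM at day 15 and 95.7 CPM at day 11, 5.52-fold lower (5.0 to 6.11), and 3.46-fold lower relative to the median gene. It was detected in 8.86% of thinned cells at day 15 and 35.5% at day 11.

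The ratio between the days followed the length of the gene on the chromosome. Across 15479 genes with a RefSeq span (85.7% of those tested), the Spearman correlation of the log2 ratio with span was -0.61, as a description over genes, which are not replicates. With genes put into 10 equal bins by span, the shortest bin had a median log2 ratio of 0.15 and the longest bin, from 179699 bases upwards, of -2.43. PPARGC1A spans 680.9 kb from its upstream start, in the longest bin, and its log2 ratio of -2.46 is next to the median of that bin. Another annotated start of PPARGC1A lies inside the gene, with its promoter window at 23881052 to 23881351 on chromosome 4. The span from that start is shorter and was not placed in a bin, so the likeness to the longest bin holds for the upstream start only. CKM, MB and FABP3 span 16.5, 16.6 and 13.5 kb, and their bins had medians of -0.36, -0.36 and -0.14, against their own 1.39, 0.75 and 1.23. CPT1B spans 9.75 kb and was at -1.19, in a bin with a median of -0.14. The part of gene span in the lower PPARGC1A was not tested, and the sources used here do not say whether intronic reads were counted.

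**Figure D5:**
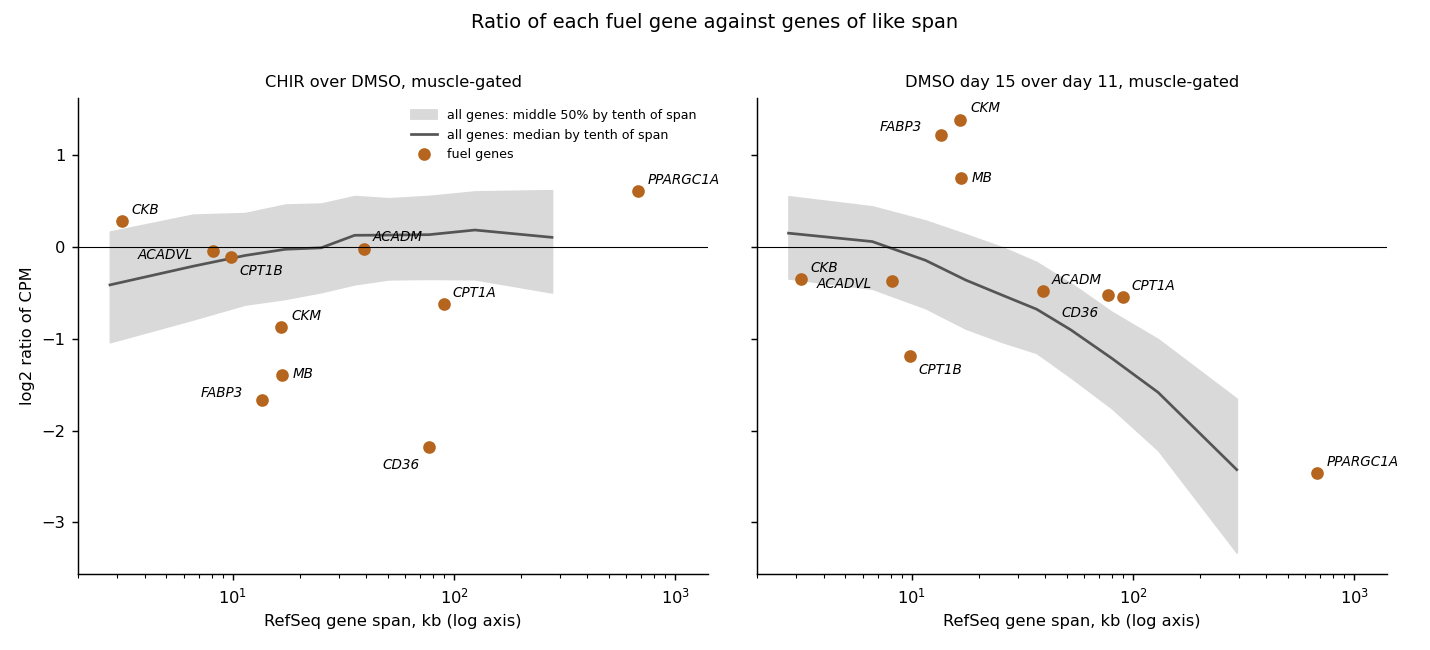
Log2 ratio of each of the 10 genes against its RefSeq span in kb on a log axis, over the median (line) and middle 50% (band) of all genes in each of 10 bins of span, for CHIR over DMSO and for DMSO day 15 over day 11 in muscle-gated cells. For the days the line falls to -2.43 in the longest bin and PPARGC1A lies at that height further right, while CKM, MB and FABP3 lie above the band. For CHIR over DMSO the line rises from -0.41 in the shortest bin to 0.11 in the longest.

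For CHIR against DMSO the same correlation was 0.17 over 14157 genes, with medians of -0.41 in the shortest and 0.11 in the longest bin. CKM, MB and FABP3 were at -0.88, -1.39 and -1.67 there, in bins with medians of -0.02, -0.02 and -0.09. The lower quartiles of those bins were at -0.56, -0.56 and -0.63. The muscle panel summed to 18150 CPM at day 15 with DMSO and 23528 CPM at day 11: RYR2 and TTN were 14.3-fold and 4.1-fold lower at day 15, TNNT2 was at 3328 and 3184 CPM, and MYL4 was 1.53-fold higher. The counts of 3 higher and 2 lower were the same with the gates halved and doubled.

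The companion lists were also set between the days, where 8.46% of all 18060 genes were at least 1.5-fold higher and 53.1% lower. Such shares are not given for TMM scaling, with which the median log2 ratio of all genes was -0.08. Of 14 beta oxidation genes 0 were higher and 3 lower at day 15, with a median log2 ratio of 0.00 against -0.67 for all genes; with TMM scaling 7 were higher and 2 lower. ETFB was 1.16-fold (1.13 to 1.19) higher and ECI1 was at 0.937-fold (0.911 to 0.963). Of 18 regulators 0 were higher and 13 lower, or 1 and 9 with TMM scaling. ESRRG was at 32.4 CPM at day 15 and 387 CPM at day 11, 11.9-fold lower (11.1 to 12.8), MEF2A was 4.06-fold and MEF2C 2.41-fold lower, and NRIP1 5.71-fold lower. These genes span 634.5, 151.1, 187.0 and 104.7 kb, and the medians of their bins were -2.43, -1.58, -2.43 and -1.58 on the log2 scale.

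Of the uptake and malonyl-CoA genes 6 of 7 and 3 of 3 were lower at day 15 (5 and 2 with TMM scaling), where 53.1% of all genes were lower. ACACA and ACACB were at -2.40 and -1.58 on the log2 scale, in bins of span with medians of -2.43 and -1.58, and MLYCD was at -0.96 in a bin with a median of -0.53. ACSL1, ACSL3, ACSL4 and SLC27A6 were at -1.44, -1.27, -1.62 and -1.61, in a bin with a median of -1.21. FABP5 was 1.89-fold higher (1.81 to 1.98). Of 5 carnitine shuttle genes 3 were lower, or 1 with TMM scaling, with SLC22A5 the furthest at 3.21-fold (2.51 to 4.15). Of 7 creatine genes 1 was higher (4 with TMM scaling), GATM at 1.57-fold (1.43 to 1.73), with GAMT at 1.40-fold (1.36 to 1.44) and AK1 at 1.14-fold (1.10 to 1.18). Of 3 oxygen genes HIF1A was 2.80-fold lower (2.64 to 2.98). CYGB was at 9.77 CPM at day 15 and 2.30 CPM at day 11, 4.24-fold higher (3.32 to 5.46); it spans 23.8 kb, in a bin with a median log2 ratio of -0.53.

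The order of the libraries thus differed by gene. CKM was highest with DMSO (504 CPM), then with CHIR (275 CPM), and lowest at day 11 (192 CPM), with counting intervals that do not overlap. In CPM, MB and FABP3 were highest with DMSO, then at day 11, and lowest with CHIR. TMM scaling raised the log2 ratios of DMSO over day 11 by 0.59, and it was not applied to CHIR against day 11. No direction between CHIR and day 11 is therefore given for MB and FABP3. PPARGC1A and CPT1B were highest at day 11, and CHIR and DMSO did not differ beyond counting error for CPT1B, ACADM and ACADVL. The comparison of CHIR with DMSO and that of DMSO with day 11 share the DMSO library, so a deviation of that library enters both with opposite sign. For CHIR against day 11, which leaves it out, CKM was at 275 and 192 CPM, MB at 223 and 347 CPM and FABP3 at 128 and 175 CPM.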

How the data were processed

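Single-cell RNA was measured in 3 libraries; the 4 chromatin samples (H3K27ac and input) were not used here. Per the labels' protocols, live cells were sorted and 10x 3′ v3 libraries made. The submitters' processing notes name Cell Ranger 6.1.1 and GRCh38, and for day 11 also R 4.1.0 and Seurat 4.3.0. The authors deposited UMI counts for each gene and cell without normalisation, for cells with between 1802 and 5999 genes. Totals were 81076689 UMIs (CHIR), 65675862 (DMSO) and 75906387 (day 11). The use of introns and strand is not stated in these sources.

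The 10 genes, the lists and the gates were chosen with earlier results of these data known. Further gates were 30 per 10000 UMIs for an endoderm and 15 for an endothelial panel. Cells between the muscle threshold of 50 and its double numbered 206, 290 and 309 in CHIR, DMSO and day 11, and cells between the halved threshold and 50 numbered 105, 332 and 335. Shared barcodes numbered 4 (CHIR and DMSO), 3 (CHIR and day 11) and 6 (DMSO and day 11). Scrublet (scanpy 1.11.5, expected rate 0.06) called 0, 220 and 1 cells in CHIR, DMSO and day 11, so it failed in CHIR and day 11, and no cell was removed. Cells past both gates (386, 293 and 649) had medians of 23080, 20314 and 15065 UMIs.

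UMIs were summed per class and scaled to CPM. Ratios have exact conditional binomial 95% intervals, CPM exact Poisson and shares exact binomial (Clopper-Pearson) intervals; log2 ratios had 0.5 added to each count. With 1 library per group there is no p-value. All 10 genes were named whatever their values. Companions were named mostly by CPM, and some after their values were seen. Alternatives were TMM factors (edgeR 4.0.16 in R 4.3.3), totals without mitochondrial and ribosomal genes, mean per-cell CPM, gates halved and doubled, the 6% highest doublet scores left out, cells of both gates counted as muscle, no minimum of 20 UMIs and, chosen after seeing the data, SHOX2 cells left out. Gene spans and promoters came from RefSeq on GRCh38.p14, matched by symbol or synonym. The ratio script was tested on simulated counts.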

Additional observations from a re-analysis of the deposited data

Results flagged for a closer look

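CKB stood out because its direction with CHIR differed between the classes. In muscle-gated cells the log2 ratio of CHIR over DMSO was 0.28, at 233 and 192 CPM, and in mesenchymal-gated cells it was -0.15, at 62.7 and 69.6 CPM. Neither reached 1.5-fold, and the difference between the classes was not tested. Without mitochondrial and ribosomal genes in the totals the mesenchymal value was 0.03, so that the opposite direction was lost.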

How the results depend on the processing

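Of 500 recomputed ratios 397 stayed inside the counting interval of the main ratio, 103 moved outside it and 0 of the called ratios changed sign. That interval is wide for genes with few UMIs and narrow for genes with many, so these counts do not measure how far a ratio moved. For CHIR against DMSO in muscle-gated cells, the 1 gene that was 1.5-fold higher, PPARGC1A, became 0 with mean per-cell CPM, with thresholds doubled and with cells of both gates counted as muscle. In mesenchymal-gated cells 1 gene, CPT1B, became 1.5-fold higher without mitochondrial and ribosomal genes, and the lower genes numbered 5 with thresholds doubled, and 2 with them halved, against 3; the cause was not tested. CPT1A in muscle lost its call with TMM and without mitochondrial and ribosomal genes. The counts for DMSO day 15 against day 11, 3 higher and 2 lower, were the same under each alternative, but 5 of 10 genes changed sign with TMM. With 1 library per group no culture-to-culture spread is known, and CD36, CPT1A and CPT1B rest on 15 to 326 UMIs in muscle-gated cells. No paired analysis was possible because each group compared held 1 library, and the numbered chromatin replicates were not used.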
